A study of Rattus norvegicus with 26 samples.

Results

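Gene levels and their spread between rats were described in the hippocampus of the 9 rats that ate the control diet, out of 26 rats in the study. These were the arrays titled as control, and each array held the RNA of 1 rat. All rats were male F344 rats aged 18 months. The control animals had eaten a purified diet with 1000 IU of vitamin D3 per kg for 5 to 6 months, and no animal carried a transgene or received another agent per the labels. The 17 rats of the other diets (8 on 100 and 9 on 10000 IU per kg) were used only as a second set, around their own diet means, to see whether a pattern of the control rats recurred. No diets were compared. RNA of a hippocampal tissue block was measured on the Affymetrix Rat Gene 1.0 ST array, which reads each gene through a set of short probes.

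Control rats are named by their subject numbers, 9 to 17. They came from 5 cages, and 4 of these cages gave both cage mates. The rats were treated as independent, and the consensus correlation of cage mates over genes was 0.088. Of 29214 probe sets, 15310 carried 1 gene symbol, and the probe set of highest mean in the control rats was kept for each of 14506 genes. A gene was tested for spread if this mean was 6.95 log2 (the median over probe sets) or more, and 8478 genes met this. Each gene's spread was compared with the typical SD of genes of like intensity. The array medians of the control rats lay between 6.93 and 6.96.

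The hippocampus is a layered cortex in which granule cells of the dentate gyrus and pyramidal cells of fields CA3, CA2 and CA1 form an excitatory chain. It borders the ventricle, where the choroid plexus secretes cerebrospinal fluid, and white matter tracts rich in myelin run along it. Its neurons carry many glucocorticoid receptors, so stress hormone and recent neuronal activity are known to change a small set of quickly induced genes there. In tissue RNA of this kind, fewer cells of a type and less RNA per cell cannot be told apart.

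Rat 17 stood apart from the other control rats and is treated first. Its mean correlation with the other control arrays was 0.9966, the lowest of the 9, against 0.9976 for the closest array. In rat 17, 70 tested genes (0.826%) lay more than 0.5 log2 above the median of the other 8, and 11 (0.13%) lay as far below. The other control rats had 0 to 8 such genes above and 0 to 4 below. Results that rest on rat 17 are given with and without it.

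The defining markers of the labelled tissue were present. Wfs1, a CA1 marker, had a mean of 12.05 ± 0.20 log2 (SD, n = 9), and Prox1, the transcription factor of dentate granule cells, had 10.68 ± 0.10. By comparison, the 53 olfactory receptor genes of the Olr family had a median of 5.62, and 1 of them reached the floor for testing.

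The 15 genes of highest intensity are named first. A log2 intensity depends on the probes as well as on the RNA, so the order below is one of intensities. In 353 genes with 2 tested probe sets, the probe sets differed by a median of 0.34 log2 and by 2.06 at the 90th percentile. Over all genes the median level was 7.80, with 5.34 at the 10th and 10.91 at the 90th percentile, and 12.74 at the 99th. At the top stood Ube2d2, a ubiquitin-conjugating enzyme, at 14.44 ± 0.06 log2 (SD, n = 9). Gapdh, a glycolytic enzyme, followed at 14.19 ± 0.03, and Rpph1, the RNA component of ribonuclease P, at 14.15 ± 0.05. Atp1b1, a subunit of the sodium pump, had 14.12 ± 0.04. Lgi1, a secreted synaptic protein, had 13.88 ± 0.05, and Snap25, which drives vesicle fusion, had 13.84 ± 0.05. The next places were held by Zwint at 13.82, Ppp3ca, the catalytic subunit of calcineurin, at 13.79, Actb at 13.75 and Scd2, a fatty acid desaturase, at 13.75. Chn1 at 13.67, Ywhae at 13.66, the glutamate transporter gene Slc1a2 at 13.60, Rtn3 at 13.60 and Cnih2, an AMPA receptor auxiliary subunit, at 13.58 completed the first 15. In 10 of the 14 steps of this order the next gene lay within 1 SD between rats, so the order of close neighbours is not resolved.

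Among the gene lists, those of neurons and of metabolism had the highest median levels. Each list is set against the 10% of all genes that lie in the top 10% by level by construction. Of 19 markers of pyramidal and granule neurons, 18 lay in the top 10%, with a list median of 12.69, and Camk2a, the alpha subunit of the synaptic kinase CaMKII, had 13.50 ± 0.04. Of 21 glycolysis genes 14 lay there (median 12.06), as did 26 of 37 genes of the presynaptic vesicle cycle (median 12.00), with Atp6v0c, a subunit of the vesicular proton pump, at 13.38.

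Glial and housekeeping lists came next. Of 19 astrocyte markers 12 lay in the top 10% (median 11.75), where Ndrg2 had 13.52 ± 0.03. Of 30 tubulin and actin genes 18 did (median 11.51), with Pfn2, a neuronal profilin, at 13.57. Of 18 myelin and oligodendrocyte genes 10 did (median 11.44), and Mbp, myelin basic protein, had 12.69 ± 0.06. The GABA list followed with 12 of 21 genes (median 11.33), oxidative phosphorylation with 36 of 69 (median 11.02) and cytosolic ribosomal proteins with 32 of 69 (median 10.74). Within the latter, Rps29 had 13.45 ± 0.03 and Rpl41 had 13.06 ± 0.07, and Cox8a, a subunit of cytochrome c oxidase, had 13.34 ± 0.05.

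Gene families were also grouped by the stem of their symbols. Of 176 such families with at least 10 genes, the highest median belonged to Ndufb, accessory subunits of complex I, at 11.17. Rpl, large-subunit ribosomal proteins, followed at 11.06, then the Hspa chaperones at 10.75 and the Atp stem, which pools ATPases and ATP synthase subunits, at 10.68. Related stems could lie apart, with Ndufa in place 14 at 10.12, Rps, small-subunit ribosomal proteins, in place 20 at 9.88 and Cox in place 32 at 9.53. The lowest medians were those of Klk, tissue kallikreins, at 5.27, Scgb at 5.32 and Krt, keratins, at 5.33. None of the 44 keratins and none of the 27 Tas taste receptor genes reached the floor for testing.

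The vitamin D list was of low intensity on the control diet. Of its 21 genes 5 were tested, and the list median was 5.79. Vdr, the vitamin D receptor, lay between 5.18 and 5.34 log2 in the 9 rats, with a median of 5.28, which is under the 10th percentile of all genes. The exception in level was Pdia3, a protein disulfide isomerase also described as a membrane binding protein for the hormone, at 13.12 ± 0.04. None of the 5 tested genes was called, against 0.13% of all tested genes. Their median SD was 1.03 times the typical SD, against 1.01 times for all tested genes.

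The spread between rats was small for most genes. The median SD of the tested genes was 0.0692 log2, or 4.91% of the linear level, with 0.0332 at the 5th and 0.146 at the 95th percentile. The SD was under 0.1 in 79.4% of them. It fell with intensity, from a median of 0.0926 between 7 and 8 log2 to 0.0392 at 13 and above. The most even tested genes were Bbs1 (SD 0.01, mean 9.13), Aaas (0.01, mean 9.82), Upf2 (0.01, mean 9.90), Rtn3 (0.01, mean 13.60) and Dstn (0.02, mean 12.98), which belong to the cilium, the nuclear pore, mRNA decay, the endoplasmic reticulum and actin turnover. The large lists of basal metabolism stayed close to the typical SD. The median ratio was 1.05 for ribosomal proteins, 1.18 for oxidative phosphorylation, 1.02 for proteasome and ubiquitin genes and 0.85 for astrocyte markers.

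A total of 11 genes of 8478 (0.13%) varied more between control rats than genes of like intensity, by limma's moderated variance test with an intensity trend and a robust prior (1-sided, Benjamini-Hochberg adjusted p under 0.05). They were Ttr, Npas4, Efna5, Rgs4, Kcnf1, Atp2b4, Pdk4, Zic1, Dpp10, Gpd1 and Sgk1. Without adjustment, 483 genes had a p under 0.05. Without rat 17 the test called 6 genes (0.0708%), 5 of them shared with the 11: Ttr, Npas4, Pdk4, Zic1 and Gpd1, with Dusp1 added. Leaving out rat 12 or rat 13 left 5 called genes each, without Pdk4, Sgk1, Kcnf1, Dpp10, Gpd1 and Zic1. With cage as a fixed factor 12 genes were called and 8 were shared: Pdk4, Sgk1 and Gpd1 lost their call (adjusted p 0.10, 0.16 and 0.15), and Chrna4, Fnbp1l, Fxyd6 and Tox gained one. In the 17 rats of the other diets 3 genes (0.0354%) were called, namely Ttr, Npas4 and Cd74, so 2 recurred. Across all tested genes, which are not independent of each other, the SD in the control rats and that in the other rats had a Spearman rho of 0.634.

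**Figure D1:**
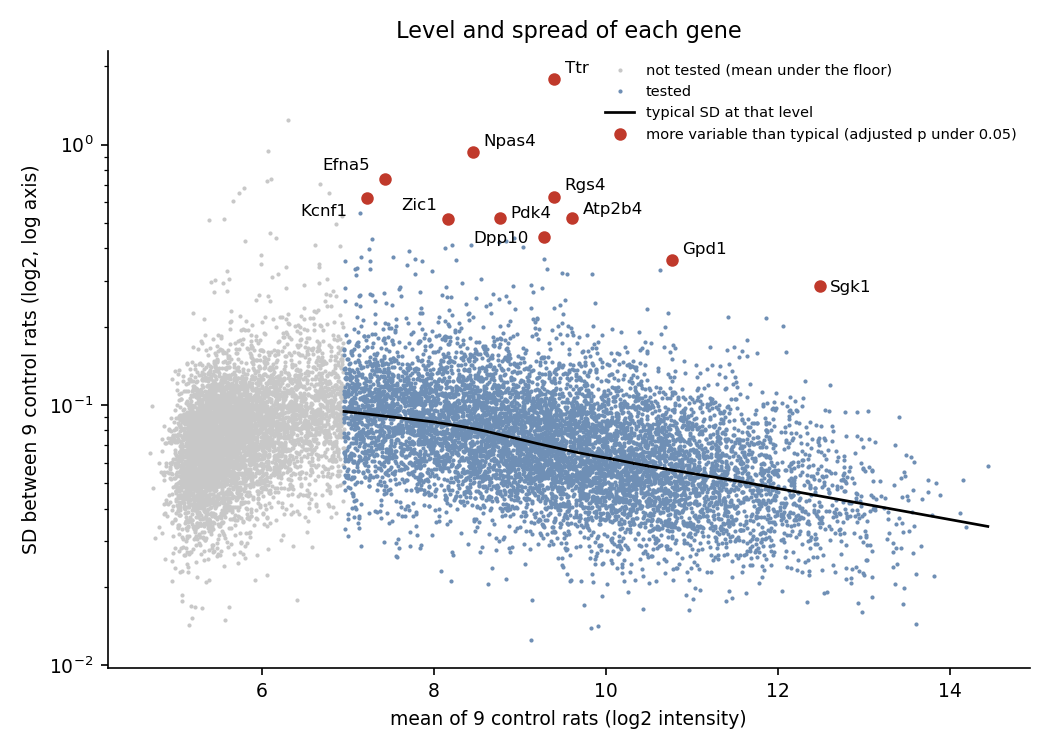
Mean of the 9 control rats (horizontal axis, log2 intensity) against the SD between them (vertical axis, log2 units on a log axis) for every gene. Grey points were not tested, the black line is the typical SD at each intensity, and the 11 red genes passed the test, from Sgk1 (SD 0.29) up to Ttr (SD 1.79).

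Ttr, transthyretin, a thyroid hormone carrier made in bulk by the choroid plexus, varied most. Its values ran from 6.69 log2 in rat 14 through a median of 9.15 to 12.91 in rat 16, a 74.6-fold range on the linear scale. Rats 9 and 15 were also high, at 10.79 and 10.25, and rats 12 and 17 were low, at 7.93 and 8.49. The SD of 1.79 was 26.0 times the typical SD (limma variance test, adjusted p = 3.0e-05, n = 9). Ttr was called with each single rat left out in turn and under every other setting tried, and its SD in the other 17 rats was 1.37.

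Other choroid plexus genes followed the same rat. Of 24 measured markers, 18 had their highest value in rat 16, against 9.69% of all genes. Only 8 of the 24 reached the floor for testing, because the mean of the rest was low, so these markers are described from all measured members. Kcnj13, a potassium channel of the plexus epithelium, lay between 5.47 and 6.72 in 8 rats and at 9.46 in rat 16. Clic6, a chloride channel protein, was at 8.16 in rat 16 and at 7.07 in rat 9, and the lowest value was 5.42. Kl, the anti-ageing gene klotho, reached 7.54 in rat 16 and at most 5.89 in the others. Sostdc1, a secreted BMP and Wnt antagonist, reached 7.24 against at most 5.59, and Cldn2, a tight junction claudin, 6.72 against at most 5.47. Each of these genes had its highest value in rat 16, as did 9.69% of all genes. Rat 9 was second for Ttr, Kcnj13, Clic6, Kl and Cldn2. By contrast the markers Car12 and Trpm3, which were bright in all rats, lay only 0.01 and 0.17 log2 higher in rat 16 than the mean of the other 8.

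In all, 12 of the 24 markers had an SD over 0.25 log2, against 0.786% of all genes. Without rat 16 there were 3 of 24, Ttr, Kcnj13 and Clic6, against 0.738%, and the SD of Ttr was 1.29. Without the floor for testing 43 genes were called, among them Kcnj13, Clic6, Kl, Sostdc1, Cldn2 and Slc4a5. The mean pairwise r over the 24 markers was 0.50 in the control rats, 0.26 without rat 16 and 0.16 in the other rats. As a description, Ttr had an r of 0.89 with Kcnj13, 0.91 with Clic6 and 0.83 with Kl in the control rats. Without rat 16 these values were 0.90, 0.80 and 0.73, and in the 17 other rats they were 0.93, 0.73 and 0.85. With Enpp2 and Folr1, Ttr had 0.96 and 0.87 in the control rats, but 0.32 and 0.27 in the other rats. Of the tested choroid plexus genes, Slc13a4, a sulphate transporter, Igf2, a growth factor also made by meninges, and Cldn1 were highest in rat 16 too, at 7.78, 7.47 and 8.73. None of these 3 passed the variance test. Igf2 had a mean of 6.90 in the other 8 rats, so it reached the floor for testing, and the 8 tested markers, only through rat 16. The part of choroid plexus RNA in the spread of Ttr was not tested.

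**Figure D2:**
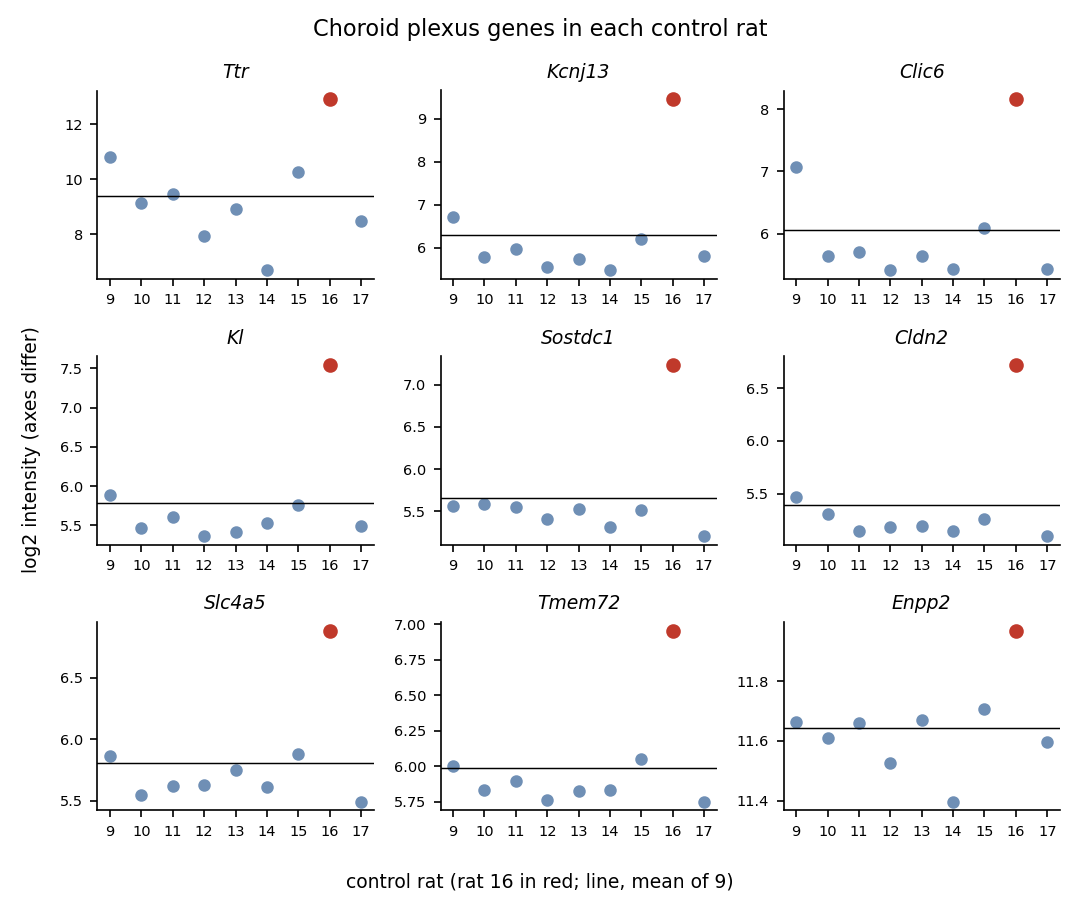
Log2 intensity of 9 choroid plexus genes (vertical axes differ) in each control rat (horizontal axis), with rat 16 in red and the mean of the 9 rats as a line. Rat 16 is the highest point in every panel, from 12.91 for Ttr to 6.72 for Cldn2, and rat 14 is the lowest for Ttr at 6.69.

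Another pattern was that of rat 17. Of the 11 called genes, 6 formed 1 group by their correlation across the control rats (average linkage, joined at r over 0.7), and all 6 had rat 17 as the farthest rat. Npas4, an activity-regulated transcription factor, ranged from 7.51 in rat 15 through a median of 8.24 to 10.55 in rat 17 (SD 0.94, adjusted p = 0.0037 by limma's variance test, n = 9). Rats 10 and 16 were next for Npas4, at 9.14 and 8.74, and without rat 17 its SD was 0.54 and its adjusted p 0.020. The other 5 genes lost their call without rat 17. Efna5, an ephrin ligand for axon guidance, lay between 6.94 and 7.57 in 8 rats and at 9.34 in rat 17. Rgs4, a brake on G-protein signalling, lay between 8.92 and 9.57 and at 10.96 in rat 17. Kcnf1, a modulatory potassium channel subunit, lay between 6.66 and 7.43 and at 8.79. Atp2b4, a plasma membrane calcium pump, lay between 9.21 and 9.62 and at 10.94, and Dpp10, a subunit of A-type potassium channels, between 9.04 and 9.22 and at 10.45. For these 5 genes rat 17 was the highest rat, as it was for 15.3% of all genes, and the SD without it was between 0.06 and 0.24 log2.

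Further genes were high in rat 17. Chrna4, a nicotinic receptor subunit, was 1.57 log2 above the mean of the other 8 rats, Cckbr, the cholecystokinin B receptor, 1.25 and Tox, a nuclear factor, 1.25. The neuropeptide genes Adcyap1 and Grp reached 8.64 and 7.91 in rat 17, against at most 7.83 and 7.14 in the others. Satb1, a chromatin organiser, had 11.29 against at most 10.76. Of the 70 genes, Adcyap1 and Grp were 2 of 22 tested neuropeptide genes, Grik3 and Grm4 2 of 33 tested glutamate receptor and scaffold genes, and Cacna1g, Atp2b4 and Slc8a3 3 of 42 tested calcium genes, against 0.826% of all tested genes. The 11 genes that were low in rat 17 included Ttr and the glucocorticoid-induced Pdk4, Sgk1, Nfkbia and Ddit4.

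Markers of the CA1, CA3 and CA2 fields were low in the same rat, and markers of neurons in general were low by less. The 8 tested CA1 markers had a median difference of -0.28 log2 between rat 17 and the mean of the others, and 1 of them was higher. Of the 13 tested CA3 and CA2 markers 2 were higher, with a median difference of -0.28. The pyramidal and granule neuron list was low in rat 17 too. Of its 19 tested genes 2 were higher, with a median difference of -0.06, and its mean was lowest in rat 17 at 12.36. Over all tested genes 54% were higher in rat 17 and the median difference was 0.01. Wfs1 was lowest in rat 17 at 11.71, and so was Fibcd1, a CA1 marker, at 9.66. Cpne4, a CA3 and CA2 marker, was at 10.82 in rat 17 and between 11.16 and 11.26 in the other rats. The list of neighbouring cortex and subiculum had a median difference of 0.02, with 6 of 10 tested genes higher, and of the 9 tested dentate markers 3 were higher. The part of these field markers in the pattern of rat 17 was not tested.

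The pattern rested on rat 17 within the control group, and its genes had a lower mean pairwise r elsewhere. The mean pairwise r of the 70 genes was 0.87 in the control rats, 0.11 without rat 17 and 0.33 in the 17 other rats, against 0.03, 0.03 and 0.05 for all tested genes. The 70 genes were chosen by their height in rat 17, so the 0.87 follows from the choice. On these genes 1 rat of the high diet, rat 19, lay 0.28 log2 above its diet mean and rat 25 lay 0.19 below. The rest of the other rats lay between -0.08 and 0.08. The part of rats 19 and 25 in the 0.33 was not tested.

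**Figure D3:**
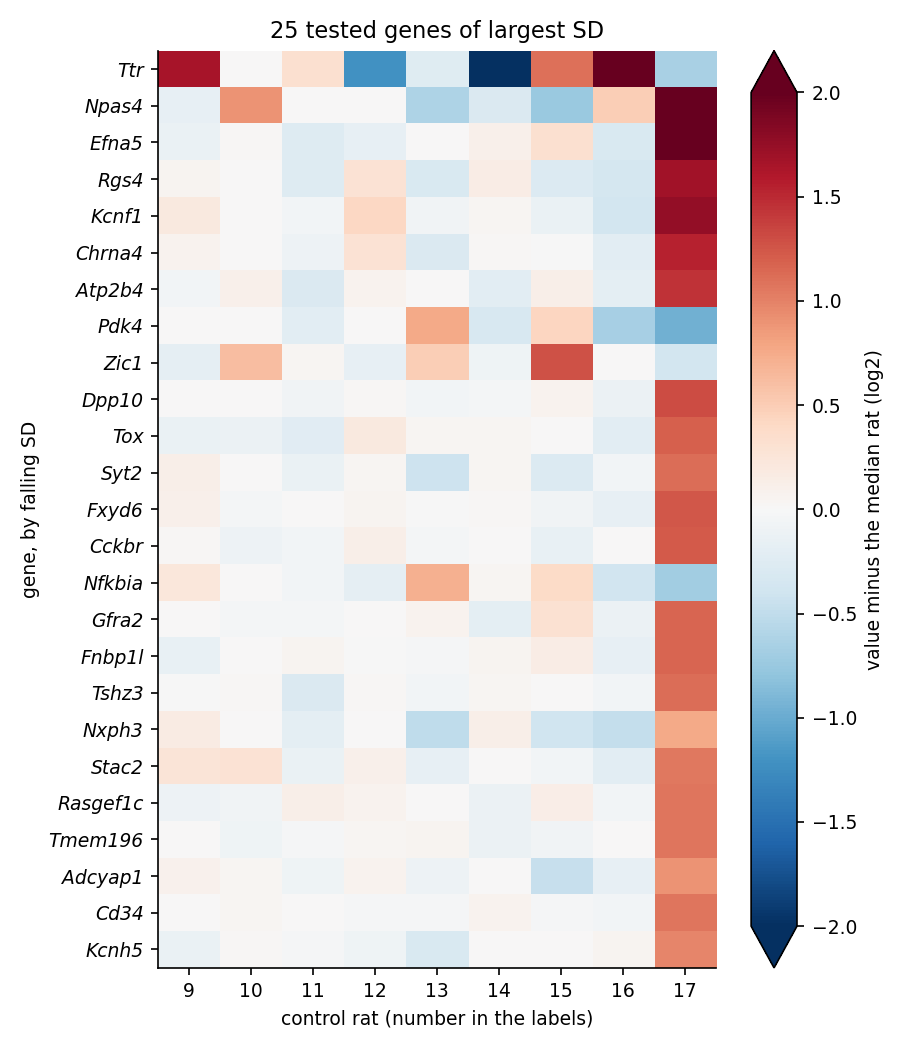
Value minus the median of the 9 control rats (colour, log2, with the scale ending at 2) for the 25 tested genes of largest SD (rows) in each control rat (columns). The column of rat 17 is red in most rows, while Ttr follows rats 16, 9 and 15 and Pdk4 and Nfkbia are red in rats 13 and 15 and blue in rats 16 and 17.

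The glucocorticoid-induced genes also moved together, spread over several rats. Glucocorticoids bind a nuclear receptor that switches on genes of fuel choice, ion transport and inhibition of inflammatory signalling. Of 19 measured genes of this list 17 were tested. Their median SD was 0.14 log2, or 2.07 times the typical SD. Of the 17, 2 were called and 9 had an SD over 2 times the typical SD, against 0.13% and 5.05% of all tested genes. Without rat 17, 9 of 17 were again over 2 times, against 3.63%, and 1 was called, against 0.0708%. The mean pairwise r of the list was 0.48 in the control rats, 0.54 without rat 17 and 0.42 in the 17 other rats. The mean over the 17 genes was highest in rat 13 at 9.89, had 9.76 in rat 15 and 9.75 in rat 9, and was lowest in rats 17 and 16 at 9.41 and 9.49. Rats 16 and 17 were cage mates, whereas the mates of rats 13 and 15, rats 12 and 14, had 9.60 and 9.57. With cage as a fixed factor neither Pdk4 nor Sgk1 was called (adjusted p 0.10 and 0.16 by limma's variance test).

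Pdk4, a kinase that turns off glucose oxidation by pyruvate dehydrogenase, ran from 7.92 in rat 17 through a median of 8.88 to 9.63 in rat 13 (SD 0.52, adjusted p = 0.037 by limma's variance test, n = 9). Sgk1, a kinase that raises sodium channel activity, ran from 11.86 in rat 17 through 12.60 to 12.80 in rat 13 (SD 0.29, adjusted p = 0.040). Sgk1 was not called without rat 17, where its adjusted p was 0.21, whereas Pdk4 was, at 0.024. Both genes were high in rats 13 and 15 and low in rats 14, 16 and 17. Nfkbia, an inhibitor of NF-kB, ran from 7.51 to 8.90 and Ddit4, an inhibitor of mTORC1, from 8.87 to 10.00, with the same rats 17 and 13 at the ends. Errfi1, a feedback inhibitor of the EGF receptor, ran from 11.18 in rat 17 to 11.73 in rat 13. Nfkbia and Ddit4 missed the threshold, both with an adjusted p of 0.10 by limma.

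These genes moved together in both sets of rats. Pdk4 and its 4 nearest genes had r values in the control rats of 0.96 (Ddit4), 0.95 (Errfi1), 0.94 (Nfkbia) and 0.92 (Sgk1), which chose the pairs and are a description. In the 17 other rats, around their diet means, the r values of the same pairs were 0.91, 0.83, 0.91 and 0.95. Their permutation p values, adjusted over 44 pairs, were 8.8e-05, 0.0012, 8.8e-05 and 8.8e-05, and the unadjusted 1e-05 of 3 of them is the floor set by 100000 permutations. The rho of Spearman for these pairs was 0.88, 0.73, 0.87 and 0.90 (adjusted permutation p of 0.00022, 0.018, 0.00062 and 0.00022). Without the 2 rats farthest from the median of Pdk4, r was 0.90, 0.80, 0.90 and 0.93.

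The promoters of Pdk4, Sgk1 and Errfi1 are shown because these genes rose and fell together between rats. They are RefSeq sequences of build GRCr8, from 250 bases before to 50 after the gene start. Pdk4 lies at chr4:34568280-34568579 (minus strand), Sgk1 at chr1:24807182-24807481 (minus strand) and Errfi1 at chr5:166606591-166606890 (plus strand). Capitals mark the TATA box letters TATAAA. The glucocorticoid response element, AGAACA and TGTTCT with 3 bases between them, was searched on both strands, as were AGAACA alone, which the element contains, and TATAAA.
Pdk4: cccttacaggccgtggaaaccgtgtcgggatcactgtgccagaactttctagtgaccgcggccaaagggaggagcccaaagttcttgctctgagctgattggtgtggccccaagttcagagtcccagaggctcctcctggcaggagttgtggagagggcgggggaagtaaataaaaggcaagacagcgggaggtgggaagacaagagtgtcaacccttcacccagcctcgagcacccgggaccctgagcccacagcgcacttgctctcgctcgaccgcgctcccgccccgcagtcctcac
Sgk1: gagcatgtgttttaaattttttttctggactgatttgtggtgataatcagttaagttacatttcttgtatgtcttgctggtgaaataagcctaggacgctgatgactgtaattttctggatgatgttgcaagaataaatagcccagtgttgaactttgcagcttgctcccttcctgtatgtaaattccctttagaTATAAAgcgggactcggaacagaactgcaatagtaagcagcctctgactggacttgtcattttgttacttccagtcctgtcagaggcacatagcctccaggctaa
Errfi1: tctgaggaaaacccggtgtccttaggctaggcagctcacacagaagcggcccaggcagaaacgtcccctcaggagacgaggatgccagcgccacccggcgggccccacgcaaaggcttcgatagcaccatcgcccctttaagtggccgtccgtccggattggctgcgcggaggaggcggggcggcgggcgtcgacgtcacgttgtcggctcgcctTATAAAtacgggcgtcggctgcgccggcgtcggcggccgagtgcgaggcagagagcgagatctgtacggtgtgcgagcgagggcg
Among 33469 promoters of the same length, AGAACA was found in 20.7%, the whole element in 0.0149% and TATAAA in 14.2%. Of 17 promoters of the glucocorticoid-induced list that the table holds, 1 had AGAACA, 0 had the whole element and 5 had TATAAA. No match says only that these letters are not in this window.

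Not all glucocorticoid-induced genes followed Pdk4. Fkbp5, a co-chaperone that dampens the receptor, ran from 9.34 to 9.68 with rats 9 and 11 highest, and its r with Pdk4 was 0.40. It went with Gpd1, a glycerol phosphate dehydrogenase of oligodendrocytes and other glia. Gpd1 ran from 10.29 in rat 14 through 10.82 to 11.24 in rat 9 (SD 0.36, adjusted p = 0.040 by limma's variance test, n = 9). The r of Gpd1 with Fkbp5 was 0.95 in the control rats and 0.60 in the 17 other rats (permutation p adjusted over 44 pairs 0.046, Spearman rho 0.64). Mt2A, a metallothionein, was bright and even, at 13.09 ± 0.06.

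**Figure D4:**
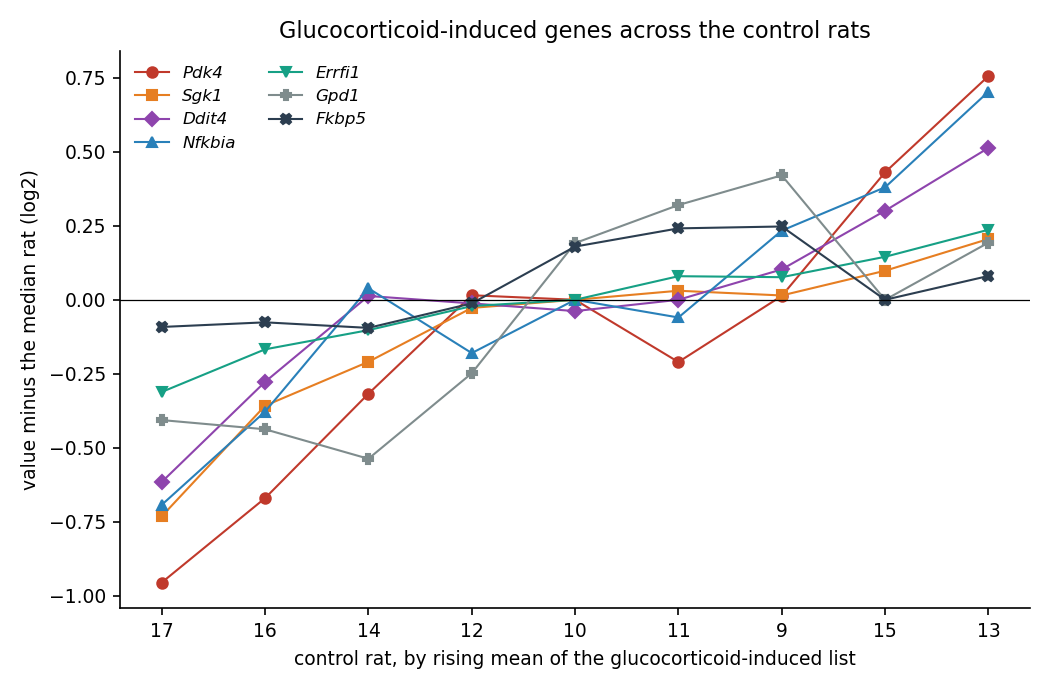
Value minus the median control rat (vertical axis, log2) for 7 genes, with the control rats ordered by the mean of the glucocorticoid-induced list (horizontal axis). Pdk4, Sgk1, Ddit4, Nfkbia and Errfi1 are lowest in rat 17 and highest in rat 13, while Gpd1 and Fkbp5 peak in rat 9.

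Recurrence of nearest genes in the other rats differed between the called genes. For each of the 11 called genes the 4 tested genes of highest r in the control rats were taken, and all 44 r values were at least 0.91. The median r of these pairs was 0.96 in the control rats and 0.53 in the 17 other rats, and 19 pairs were positive and passed in the other rats by permutation. By rho as well as r, 15 pairs passed. The pair of Rgs4 and Kcnf1 was reached from each of its genes, so it is counted 2 times in the 44, the 19 and the 15. For Pdk4 4 of 4 neighbours passed by both, and for Rgs4 4 by r and 3 by both. For Ttr and Npas4 0 of 4 passed by either. Efna5 and Zic1 had 1 each by r, that of Zic1 in the opposite direction, and 0 by both. Kcnj13, Kl and Clic6 lay under the floor for testing, so they could not be neighbours of Ttr here. The pair that Rgs4 lost was that with Grm4 (rho 0.45, adjusted permutation p 0.16, and r = 0.24 without the 2 farthest rats). Ttr had r values of 0.96 with Pcif1, 0.96 with Enpp2 and 0.95 with Tnrc6b in the control rats, and of -0.30, 0.32 and -0.05 in the other rats. Rgs4 and Kcnf1 had 0.98 in the control rats, 0.88 without rat 17 and 0.95 in the other rats (adjusted permutation p 8.8e-05, Spearman rho 0.89, and r = 0.79 without the 2 farthest rats). Rgs4 and Satb1 had 0.99, 0.93 and 0.86 in the same order (adjusted permutation p 0.0016, Spearman rho 0.68). Atp2b4 and Camk2d, a subunit of CaMKII, had 0.98, 0.77 and 0.93, but 0.45 in the other rats without the 2 farthest. A further 2 pairs passed by r in the opposite direction, Sgk1 with Nkain3 (0.95 in the control rats, -0.55 in the others) and Zic1 with Alcam (0.92 and -0.66). Neither passed by rho (adjusted permutation p 0.062 and 0.077), and without the 2 farthest rats r was -0.64 and -0.40.

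Myelin genes varied together with small amplitude. Oligodendrocytes wrap axons in myelin, and their genes are often switched on as a block. Of 18 tested genes of this list 0 were called, against 0.13% of all tested genes. An SD over 2 times the typical SD was found in 9, against 5.05% of all tested genes (10 and 3.63% without rat 17). The mean pairwise r was 0.57 in the control rats, 0.61 without rat 17 and 0.67 in the 17 other rats, the highest of the lists with at least 5 tested genes in both sets. The mean of the list was highest in rat 15 at 11.22 and in rat 13 at 11.17, and lowest in rat 14 at 10.92. Aspa, the aspartoacylase that frees acetate for myelin lipids, varied most, from 9.29 in rat 16 through a median of 9.47 to 9.97 in rat 15 (SD 0.25, adjusted p = 0.22 by limma). Enpp6, a marker of newly formed oligodendrocytes, ran from 8.23 in rat 14 to 8.77 in rat 11. Opalin ran from 10.61 to 11.06, with rat 15 highest, and Fa2h, which makes hydroxylated myelin lipids, from 10.17 in rat 14 to 10.54 in rat 15. Cldn11, the claudin of myelin, ran from 12.06 in rat 14 to 12.35 in rat 13.

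Immediate early genes, with Npas4 among them, moved less together in the control rats. Neuronal firing switches these genes on within minutes. Of 32 measured genes 23 were tested, 1 was called, and 5 had an SD over 2 times the typical SD, against 0.13% and 5.05% of all tested genes. Without rat 17 Npas4 and Dusp1 were called, and 3 were over 2 times, against 0.0708% and 3.63%. The mean pairwise r was 0.08 in the control rats, 0.02 without rat 17 and 0.28 in the other rats. Egr1, a zinc finger factor, was at 11.96 in rat 17 and between 11.18 and 11.44 in the others. Arc, which acts on AMPA receptor trafficking, was highest in rat 17 at 10.59 with a median of 10.25. Dusp1, a MAP kinase phosphatase, ran instead from 10.07 in rat 10 through 10.63 to 11.21 in rat 13 (SD 0.33, adjusted p = 0.052 by limma with all 9 rats and 0.020 without rat 17). Dusp5 ran from 7.92 in rat 17 to 8.51 in rat 9. Plk2 was even at 11.84 ± 0.05.

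Genes listed for neighbouring brain regions differed in single rats. Zic1, a transcription factor of septum, thalamus and cerebellum, ran from 7.61 in rat 17 through 7.98 to 9.25 in rat 15 (SD 0.52, adjusted p = 0.043 by limma's variance test, n = 9). Rats 10 and 13 were next, at 8.60 and 8.46. The mean of the 9 tested genes of the meninges and fibroblasts list was also highest in rats 13, 10 and 15, at 8.74, 8.64 and 8.64. The part of such cells in the spread of Zic1 was not tested. Calb2, calretinin, was at 7.84 in rat 15 and between 6.69 and 7.14 in the other rats, and was not called (adjusted p = 0.22 by limma's variance test). Its mean of 6.96 passed the floor of 6.95 only through rat 15, and it is counted among the tested genes below. Prkcd, a kinase rich in thalamus, had 7.50 in rat 15 and 7.51 in rat 17, with a median of 7.09. The 9 tested genes of thalamus, habenula and brainstem had a median SD of 2.03 times the typical SD, and 5 of them were over 2 times, or 3 without rat 17, against 5.05% and 3.63% of all tested genes, but their mean pairwise r was -0.01. Their mean was 8.38 in rat 15 and between 8.04 and 8.20 in the others, a gap carried by Zic1 and Calb2, which lay 1.23 and 0.98 log2 above the mean of the other rats. Without these genes the mean of the other 7 was 8.33 in rat 15 and between 8.24 and 8.35 elsewhere. Within the list of neighbouring cortex and subiculum, Nts, neurotensin, ran from 8.40 in rat 13 to 8.94 in rat 14, Fn1, fibronectin, from 8.59 to 9.03, and Ccn2, a matrix protein of deep cortical layers, from 7.02 to 7.42.

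None of the tested hippocampal field markers was called, against 0.13% of all tested genes, so few calls would arise in lists of this size. The median SD was 1.83 times the typical SD for CA1, 1.68 for CA3 and CA2 and 1.48 for the dentate gyrus. Of 8 CA1 markers 3 were over 2 times, also without rat 17, and of 13 CA3 and CA2 markers 4, or 2 without rat 17, against 5.05% and 3.63% of all tested genes. The CA1 markers had a mean pairwise r of 0.43, which was 0.26 without rat 17 and 0.24 in the other rats, and Wfs1 ran from 11.71 through 12.07 to 12.32 (rat 16). Man1a1 ran from 8.82 to 9.20, again with rat 17 lowest, and so did Dcn, decorin, from 8.69 to 9.10. The CA3 and CA2 markers had a mean pairwise r of 0.24, and 0.08 without rat 17. Among them Cpne7 ran from 9.56 in rat 17 to 10.17 in rat 12, Cacng5 from 8.92 in rat 17 to 9.59 in rat 15, and Bok from 8.36 in rat 17 to 8.77 in rat 11. The dentate markers had a mean pairwise r of 0.00, with C1ql3 at 11.21 ± 0.11 and C1ql2, a synaptic organiser of mossy fibres, at 10.48 ± 0.16.

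Immune and other glial lists differed in how far their genes moved together. Cd74, the invariant chain of MHC class II, ran from 8.99 in rat 10 through 9.60 to 10.06 in rat 17 (SD 0.32, adjusted p = 0.10 by limma). Its SD in the 17 other rats was 0.82 (adjusted p = 0.00021). The 5 tested genes of the MHC class II and T cell list had a mean pairwise r of -0.02 in the control rats and 0.45 in the others. The pair of Cd74 and the class II gene RT1-Da had r = 0.82 in the control rats, 0.72 without rat 17 and 0.96 in the other rats. Cd3e, a T cell receptor chain, was at 7.83 in rat 16 and at most 7.24 elsewhere. Cd4 was lowest in rat 14 at 8.68. The 14 tested microglial markers had a mean pairwise r of 0.06 against 0.27 in the other rats, and Cx3cr1, the fractalkine receptor, had an SD of 0.04 in the control rats. Whether the mean pairwise r differed between the 2 sets of rats was not tested. The 8 tested genes of the interferon response had a mean pairwise r of 0.36 in the control rats, 0.49 without rat 17 and 0.07 in the other rats. Of its 31 measured genes, 11 were highest in rat 14 and 12 lowest in rat 12. These were the highest and lowest rat for 9.15% and 14.0% of all genes. The mean of the tested genes was 8.25 in rat 14 and 7.97 in rat 12. Its tested gene of largest SD, Ifitm3, a membrane protein, ran instead from 8.91 in rat 17 to 9.46 in rat 13, with 9.45 in rat 14. The 19 astrocyte markers had a mean pairwise r of 0.22 in the control rats, 0.28 without rat 17 and 0.25 in the other rats, and 11 of them were lowest in rat 12. Low values in rat 12 were not particular to these lists. It was the lowest rat for 13 of 27 chaperone genes, 9 of 21 glycolysis genes and 28 of 69 cytosolic ribosomal protein genes. Gfap, the astrocyte filament, ran from 11.24 in rat 12 to 11.62 in rat 16, and Vim, vimentin, from 11.52 in rat 14 to 11.99 in rat 15. Of 15 blood genes 1 was tested, and the globin gene Hbb lay between 5.88 and 6.77, with rats 10 and 11 highest.

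**Figure D5:**
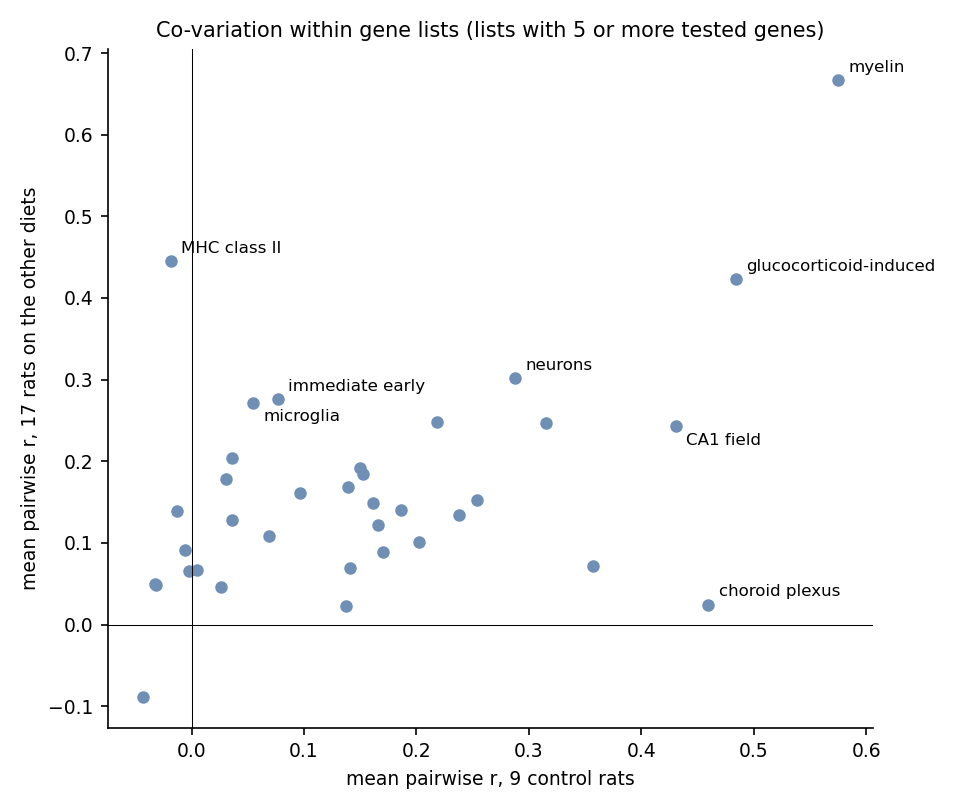
Mean pairwise Pearson r between the tested genes of each list in the 9 control rats (horizontal axis) and in the 17 rats of the other diets around their diet means (vertical axis), for lists with at least 5 tested genes and for all tested genes together. Myelin genes (0.57 and 0.67) and glucocorticoid-induced genes (0.48 and 0.42) are high in both sets. The 8 tested choroid plexus genes had 0.46 and 0.02, with 0.18 in the control rats without rat 16. They leave out Kcnj13, Kl and Clic6, which lay under the floor for testing, and hold Igf2 only through rat 16. The 5 tested genes of the mixed MHC class II and T cell list, labelled MHC class II, had -0.02 and 0.45.

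Relations between lists were examined through 1 anchor gene for each of 21 lists. Of 210 anchor pairs 0 (0%) passed at an adjusted p under 0.05 in the control rats by an exact permutation test of Pearson's r over all 362880 orders of the 9 rats (2-sided, Benjamini-Hochberg), and 12 had an unadjusted exact p under 0.05. The smallest adjusted exact permutation p was 0.70. With rat 16 left out 1 pair passed, Cd24 with Prox1, at r = 0.92 (adjusted exact permutation p = 0.036, 8 rats), against 0.61 with all 9 rats and 0.03 in the other rats. Among the 12 pairs, Fezf2, a factor of deep cortical layers, and Slc17a6, the vesicular glutamate transporter of thalamus and subiculum, had r = 0.75 (rho 0.63, unadjusted exact permutation p = 0.016) and 0.84 in the 17 other rats. Prox1 and Fezf2 had r = -0.74 (rho -0.72, unadjusted exact permutation p = 0.024) and -0.72 in the other rats. Slc17a6 and Fosl2 had the smallest unadjusted exact permutation p, 0.0099, with r = 0.80 (rho 0.53), and -0.26 in the other rats. Without rat 17 this pair had r = 0.55 (unadjusted exact permutation p = 0.16). Ttr and Mbp had r = 0.77 (rho 0.83, unadjusted exact permutation p = 0.019), and 0.15 in the other rats. Without the 2 rats farthest from the median of the first gene, these 4 pairs had r values of 0.81, -0.67, 0.62 and 0.70. Of the anchors only Ttr was called for spread, and the remaining 20 had SDs from 0.04 (Cx3cr1) to 0.32 (Cd74).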

How the data were processed

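The values are log2 probe set intensities deposited by the authors in 1 table of 29214 probe sets and 26 rats, with 0 missing values. The submitters' processing notes name GCRMA and Partek 6.6 without saying what each did. No further normalization was applied here. In the platform annotation 15310 probe sets had 1 gene symbol, 323 several and 13581 none, and the last 2 kinds were not analysed here. Of the gene IDs, 15279 matched RefSeq genes of assembly GRCr8, and 0 symbols changed. Symbols follow the platform annotation and can be old.

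Variances of the 9 control rats were tested with limma 3.58.1 in R 4.3.3: the gene's variance over the variance typical of its intensity was referred to an F distribution with a robustly fitted prior, 1-sided, with Benjamini-Hochberg adjustment over 8478 genes. For the 17 other rats, variances around the diet means were used. The procedure was tested on simulated data. Anchor pairs used exact permutation, and the neighbours of called genes were tested in the other rats with 100000 permutations within diet, 2-sided, a test added after seeing the data. Mean pairwise r is a description. The number of arrays limits the precision.

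The genes named were the 15 of highest mean, called genes, the 5 of smallest SD, up to 3 members of highest mean and 4 tested members of largest SD of each list described, the anchors and the 3 genes most like a called anchor. Other genes were chosen after their values were seen. The experiment described, the 39 gene lists and the tests were chosen with earlier results of these data known.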

Additional observations from a re-analysis of the deposited data

Results flagged for a closer look

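Genes named by the rule and list means were examined for 1 rat far from the other 8, by the gap to the nearest rat as a share of the whole range, against Dixon's 95% critical value for 9 samples. Of 140 values examined 25 were past it. Chance gives about 1 in 20, and 9.51% of all tested genes were past it. Many of the genes examined were named for a large SD in these same 9 rats. A single far rat raises both the SD and this measure, so a larger share among them follows in part from the choice. In 15 of the 25 the rat was rat 17.

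Rat 17 was the highest rat for Efna5 (9.34 log2), Rgs4 (10.96), Kcnf1 (8.79), Atp2b4 (10.94), Dpp10 (10.45), Fosl2 (9.73), Egr1 (11.96), Adcyap1 (8.64) and Grp (7.91), and for the mean of the immediate early genes (9.70). It was the lowest rat for Cnih2 (13.43), Gria2 (13.22), Gria1 (12.78) and Cpne4 (10.82), and for the mean of the CA3 and CA2 markers (10.14).

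Rat 16 was the highest rat for Slc13a4 (7.78) and Cd3e (7.83). Rat 15 was the highest for Calb2 (7.84) and for the mean of the thalamus, habenula and brainstem list (8.38). Calb2 entered that list mean only through rat 15. Rat 13 was the highest for Ywhae (13.73).

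Rat 12 was the lowest rat for Ctss (12.08), a lysosomal protease of microglia, for Rarres2 (7.56), the chemerin gene, and for the mean of the cytosolic ribosomal proteins (10.66, against 10.72 to 10.76 in the others). Rat 14 was the lowest for Cd4 (8.68) and rat 10 for Gabbr1 (12.53), a GABA-B receptor subunit.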

How the results depend on the processing

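The count of 11 genes more variable than genes of like intensity depended on the processing. It was 43 with no intensity filter, 6 with the stricter filter at 9.21 log2, 6 with quantile normalization, 17 with centring on array medians, 1 with no intensity trend, 3 with a prior that was not robust and 1 with values over 2 SD removed, and 2 and 21 at thresholds of 0.01 and 0.10. With 1 rat left out in turn it lay between 5 and 16, with 5 without rat 12 or rat 13 and 6 without rat 17. It was 11 or 12 with every probe set, with probe sets chosen over all arrays and with cage as a fixed factor, where 8 of the 12 were shared. Ttr alone was called under all 19 settings at the threshold of 0.05. Npas4 and Rgs4 were called under 16 and Zic1 under 9. The stricter filter leaves out genes of lower mean, and the other causes were not tested. The count of anchor pairs was 0 under every setting except with 1 rat left out in turn, where it was 0 to 1. In the 17 other rats 38 genes were called with no filter, and the remaining settings gave 2 or 3. No paired analysis was possible because the replicate numbers are subject numbers that no 2 diets share and no groups were compared. An array gives intensities of all cells in the block, low intensities carry little information on a gene's level, and 9 rats give an imprecise SD.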

Other observations

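Neuropeptide genes covered a wide range of levels. Chgb, a granin of secretory granules, had 12.31 ± 0.06 log2 (SD, n = 9) and Sst, somatostatin, 12.20 ± 0.10, 7 of 33 measured genes lay in the top 10% of all genes, and 11 did not reach the floor for testing, such as Pomc at 5.88 and Oxt at 6.16. The mean pairwise r of the 22 tested genes was 0.00 in the control rats and 0.07 in the 17 other rats. Nmb, neuromedin B, ran from 7.84 in rat 12 to 8.40 in rat 16 and was not called. Genes of the brain endothelium had a median level of 8.06, with the glucose transporter Slc2a1 at 11.42 ± 0.10 and the lipid transporter Mfsd2a at 10.02 ± 0.11. The mean of the 14 tested endothelial genes was highest in rat 14 at 8.82. Rat 14 was the highest rat for 7 of the 18 measured genes, against 9.15% of all genes. Of the ependymal genes, Cfap126, of motile cilia, ran from 7.11 to 7.65 with rat 16 highest, and Foxj1, the master regulator of cilia, from 6.99 to 7.22.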
